A study of Homo sapiens with 18 samples.

Results

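The genes described here are 40 genes of ribosome biogenesis and the nucleolus, chosen by name as RNA polymerase I subunits, snoRNP proteins, nucleolar phosphoproteins and processing factors of the small and large ribosomal subunits. The choice was made with earlier results of these data known, so their shares of calls come from a list that is not independent of the data. These genes, called the members below, are 40 of the 60656 gene rows of the count table, and all 40 were found in it. Messenger RNA was sequenced from its 3′ end in CAMA-1 and ZR-75-1, which are established cell lines of oestrogen receptor-positive breast cancer, and every library is labelled Parent. Cells of each line received DMSO, abemaciclib at 500 nM or palbociclib at 500 nM for 5 days, with 3 libraries in each of the 6 groups and 18 libraries in all. Both drugs inhibit the cell cycle kinases CDK4 and CDK6, and the comparisons ask how each inhibitor moved these genes in each line, whether the drugs differed and whether the lines differed. Each line is a single tumour-derived cell line, and the drugs of a line share its DMSO libraries.

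Ribosome assembly begins in the nucleolus, where RNA polymerase I transcribes the ribosomal RNA precursor. Box C/D and box H/ACA snoRNPs then modify that precursor, and processing factors of the small and large subunit fold it, cut it and load it with ribosomal proteins. In growing cells this pathway is among the largest users of transcription and energy, and it is known to follow growth signals and the MYC network.

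Library totals ran from 2308442 to 4146549 counts, and the members together held 10225 to 23770 of them. The summed share of the members was 0.585% ± 0.0165 (SD, n = 3) of all counts in CAMA-1 with DMSO, 0.431% ± 0.0112 with abemaciclib and 0.446% ± 0.0071 with palbociclib. In ZR-75-1 the shares were 0.470% ± 0.034, 0.427% ± 0.005 and 0.437% ± 0.0056. Mitochondrial transcripts took 15.7% of counts in CAMA-1 with DMSO, 24.8% with abemaciclib and 23.6% with palbociclib, against 20.2%, 19.5% and 19.0% in ZR-75-1, and with them left out of the total the member shares were 0.694%, 0.573% and 0.584% for CAMA-1, then 0.588%, 0.530% and 0.539% for ZR-75-1. All 8 luminal epithelial markers had counts in every group, with summed levels from 5198 to 7307 CPM, whereas fibroblast, immune and endothelial markers summed to at most 32.7, 11.2 and 1.47 CPM in any library. *MKI67*, a marker of cycling cells, fell from 414 ± 39.3 CPM (SD, n = 3) in CAMA-1 to 43.3 ± 8.32 under abemaciclib and 80.0 ± 2.22 under palbociclib. The ZR-75-1 levels were 498 ± 11.3, 8.65 ± 4.19 and 195 ± 12.6 CPM. Fewer cycling cells and less RNA of these genes per cell cannot be told apart in bulk samples. The *MKI67* levels and all levels below are CPM, counts scaled to a common TMM-adjusted library total. Every fold change is therefore relative to the other transcripts of the library.

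In CAMA-1 the members went mainly down. With abemaciclib, 18 of 39 tested members were lower than with DMSO and 1 was higher, by an edgeR quasi-likelihood test at a Benjamini-Hochberg adjusted p under 0.05. Across all genes tested, 20.1% were called lower and 20.3% higher, and the median log2 fold change was -0.21 over the members against 0.01 over all genes. With palbociclib, 11 members were lower and 1 was higher, against 18.7% and 18.4% of all genes, with medians of -0.15 and 0.00. DESeq2 called 12 lower and 1 higher with abemaciclib and 11 lower and 0 higher with palbociclib. *NOP2*, a methyltransferase of the large subunit, is the member that was not tested: it had 1 count in all 18 libraries, and 54.4% of its exonic bases lie under an exon of another annotated gene on the same strand.

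In ZR-75-1 the same genes split in both directions. With abemaciclib, 7 members were higher and 6 lower, against 17.9% and 18.3% of all genes, so that the members' shares were near the background. With palbociclib, 4 were higher and 7 lower, against 14.5% and 13.4% of all genes. The member medians were 0.05 and 0.04, close to the all-gene medians of -0.00 and -0.01. Scaling by total counts instead of TMM moved the median of all genes from 0.01 and 0.00 to -0.12 and -0.10 in CAMA-1, where the mitochondrial share was higher with the drugs, and then 23 members were lower and 1 higher with abemaciclib and 18 lower and 0 higher with palbociclib. Of all 11053 genes, 2958 were then lower and 1657 higher with abemaciclib, from 2217 and 2240 with TMM. With palbociclib 2710 were lower and 1543 higher, from 2072 and 2030.

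**Figure D1:**
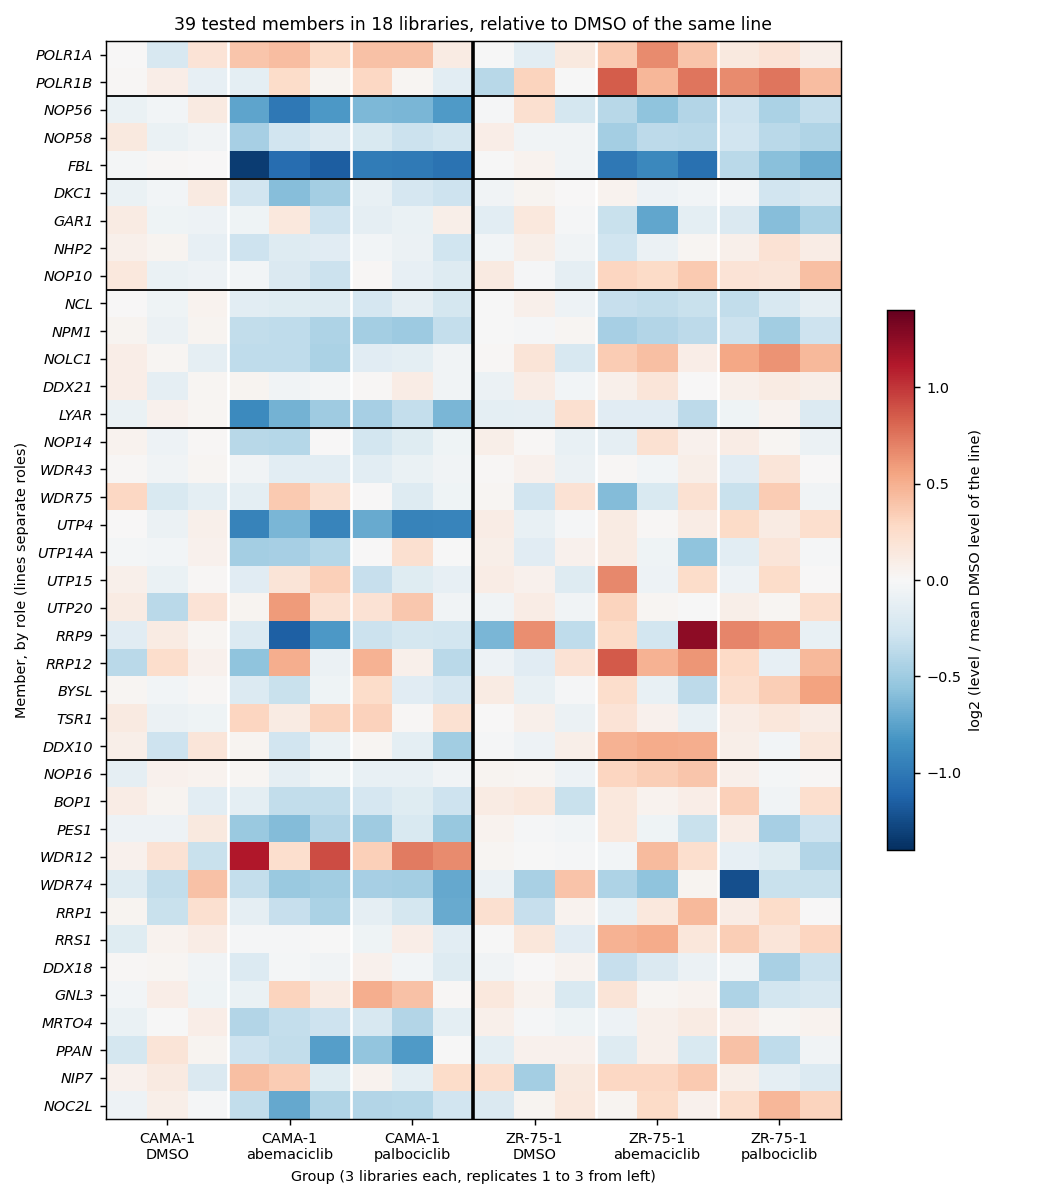
Heat map of the 39 tested members (vertical, ordered by role) in the 18 libraries (horizontal, 3 per group), coloured by log2 of the level over the mean DMSO level of the same line. *FBL*, *NOP56* and *UTP4* are blue in all 6 treated CAMA-1 libraries, *FBL* and *NOP56* also in all 6 treated ZR-75-1 libraries, and *UTP4* is not blue in treated ZR-75-1.

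By gene, 5 members were lower in all 4 comparisons with DMSO: *NOP56*, *NOP58*, *FBL*, *NCL* and *NPM1*. A further 11 were called lower in CAMA-1 and not called in ZR-75-1, 1 (*WDR12*) was called higher in CAMA-1 and not in ZR-75-1, 6 were called higher in ZR-75-1 alone and 2 (*GAR1* and *DDX18*) lower in ZR-75-1 alone. *NOLC1* and *NOC2L* were called in opposite directions in the lines, and 12 were called against DMSO in neither line. How many of all genes tested show each of these patterns was not counted, so the pattern counts have no background to be set against. A call in 1 line alone does not show that the lines differ, and that difference was tested separately.

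The promoters of the members were searched in the RefSeq table of promoters on GRCh38.p14, which covers 250 bases before to 50 bases after each start and lists 42 windows for 34 of the 40 members. CACGTG, the E-box letters bound by MYC, MAX and other factors, was found in 16 member windows (38.1%) against 7.26% of all 35116 windows. Of the other motifs, searched on both strands, CCGGAAG (ETS-type) was in 33.3% of member windows and 10.3% of all, CACGCG in 28.6% and 11.4%, and CCAAT (NF-Y) in 35.7% and 34.6%. GATTGGC, which holds the reverse complement of CCAAT, was in 11.9% and 6.55%, TTTCCCGC (E2F-type) in 2.38% and 1.63%, and TTTGGCGC (E2F-type) in 0 of 42 member windows and 0.652% of all. Member windows and all windows were not matched for base composition, and its part in these differences was not tested. The E-box letters occurred in windows of 16 members, and 9 of these, picked after their values were seen so as to cover genes lower in CAMA-1, *NOP10* and *GNL3* with responses that differed between the lines and *BYSL* with the largest difference between lines under DMSO, are shown 5′ to 3′ on the gene's strand over 30 bases, with CACGTG in capitals, so that its place and its neighbours can be compared. Not shown are *GAR1*, *DDX21*, *NOP14*, *WDR43*, *UTP14A*, *UTP20* and *NOP2*, and a second match in *NOP10* that begins 170 bases before the start.
FBL: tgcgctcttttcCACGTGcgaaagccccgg
LYAR: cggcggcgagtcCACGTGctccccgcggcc
UTP4: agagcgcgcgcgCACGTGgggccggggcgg
RRP9: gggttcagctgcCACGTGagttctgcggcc
PES1: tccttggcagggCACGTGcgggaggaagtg
MRTO4: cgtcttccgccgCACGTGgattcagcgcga
NOP10: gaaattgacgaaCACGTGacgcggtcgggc
GNL3: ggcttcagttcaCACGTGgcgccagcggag
BYSL: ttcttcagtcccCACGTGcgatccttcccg
These lie, in the same order, at chr19:39846356-39846385 (minus strand), chr4:4290068-4290097 (minus), chr16:69132621-69132650 (plus), chr3:51941892-51941921 (minus), chr22:30591880-30591909 (minus), chr1:19251807-19251836 (plus), chr15:34343130-34343159 (minus), chr3:52686026-52686055 (plus) and chr6:41921515-41921544 (plus). In GENCODE v44 the windows of *LYAR*, *UTP4*, *PES1*, *MRTO4*, *NOP10*, *GNL3* and *BYSL* lie wholly in exons of at least 1 transcript of the gene, that of *FBL* for 24 of 30 bases and that of *RRP9* for 13. The E-box letters begin 64 bases before the RefSeq start in *LYAR*, 16 before in *UTP4*, 11 before in *NOP10* and 5 before in *RRP9*. In CAMA-1 with abemaciclib, 8 of 15 tested members with the E-box letters were called lower (median log2 -0.28) and 7 of 18 with a listed promoter but without them (median -0.17). With palbociclib those numbers were 5 of 15 (-0.13) and 5 of 18 (-0.22), so that the order of the medians was not the same for the drugs. Of all genes tested in CAMA-1, 20.1% were called lower with abemaciclib and 18.7% with palbociclib. Calls among all genes with the E-box letters were not counted, so these numbers do not tie the falls to the letters. A match describes letters in this window and was not tested as a binding site.

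The box C/D snoRNP proteins, which carry out methylation of ribosomal RNA, were the role in which every member fell in every comparison with DMSO. *FBL* (ENSG00000105202.9, chr19:39834458-39846379, minus strand) encodes fibrillarin, the methyltransferase of the particle. Its level in CAMA-1 was 484, 496 and 495 CPM with DMSO, 196, 235 and 220 with abemaciclib and 250, 247 and 241 under palbociclib. In ZR-75-1 it was 363, 378 and 352 with DMSO, 182, 196 and 177 with abemaciclib and 281, 242 and 225 with palbociclib. No treated library reached a DMSO library of its line. *FBL* fell by 57.0% with abemaciclib in CAMA-1 (log2 fold change -1.22, SE 0.07, edgeR quasi-likelihood adjusted p = 7.4e-18) and palbociclib gave a change of -51.0% (-1.03, SE 0.07, adjusted p = 1.1e-15). In ZR-75-1 abemaciclib gave a change of -49.5% (-0.98, SE 0.08, adjusted p = 1.6e-15) and palbociclib one of -31.7% (-0.55, SE 0.08, adjusted p = 7.4e-08).

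*NOP56* (ENSG00000101361.17, chr20:2652593-2658393, plus strand), a core protein of the same particle whose gene also hosts snoRNAs, had 161, 167 and 187 CPM in CAMA-1 with DMSO, 103, 85.8 and 98.1 with abemaciclib and 111, 110 and 99.3 under palbociclib. In ZR-75-1 the values were 115, 136 and 98.5, then 88.9, 78.8 and 87.6, then 95.7, 85.8 and 92.2. Treated and DMSO libraries did not overlap in either line, but the lowest ZR-75-1 DMSO library, replicate 3, was close to the treated ones. The log2 fold changes under abemaciclib and palbociclib were -0.87 (SE 0.09) and -0.71 (SE 0.09) for CAMA-1, and -0.46 (SE 0.11) and -0.36 (SE 0.10) for ZR-75-1, with edgeR quasi-likelihood adjusted p between 1.4e-10 and 0.0059. The call for palbociclib in ZR-75-1 was lost without DMSO replicate 2 (-0.23, adjusted p = 0.14).

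*NOP58* (ENSG00000055044.11, chr2:202265736-202303661, plus strand), the partner of NOP56, fell less. It had 190, 162 and 168 CPM in CAMA-1 with DMSO, 126, 144 and 152 with abemaciclib and 149, 140 and 145 with palbociclib, and in ZR-75-1 207, 188 and 189, then 140, 151 and 150, then 162, 150 and 146. All treated libraries lay below all DMSO libraries of the line. The log2 fold changes were -0.33, -0.29, -0.41 and -0.36, each with an SE of 0.08 or 0.09 and an edgeR quasi-likelihood adjusted p of at most 0.0069. Without DMSO replicate 1, the CAMA-1 library with the highest level, the value for palbociclib was -0.225 and its adjusted p = 0.067.

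**Figure D2:**
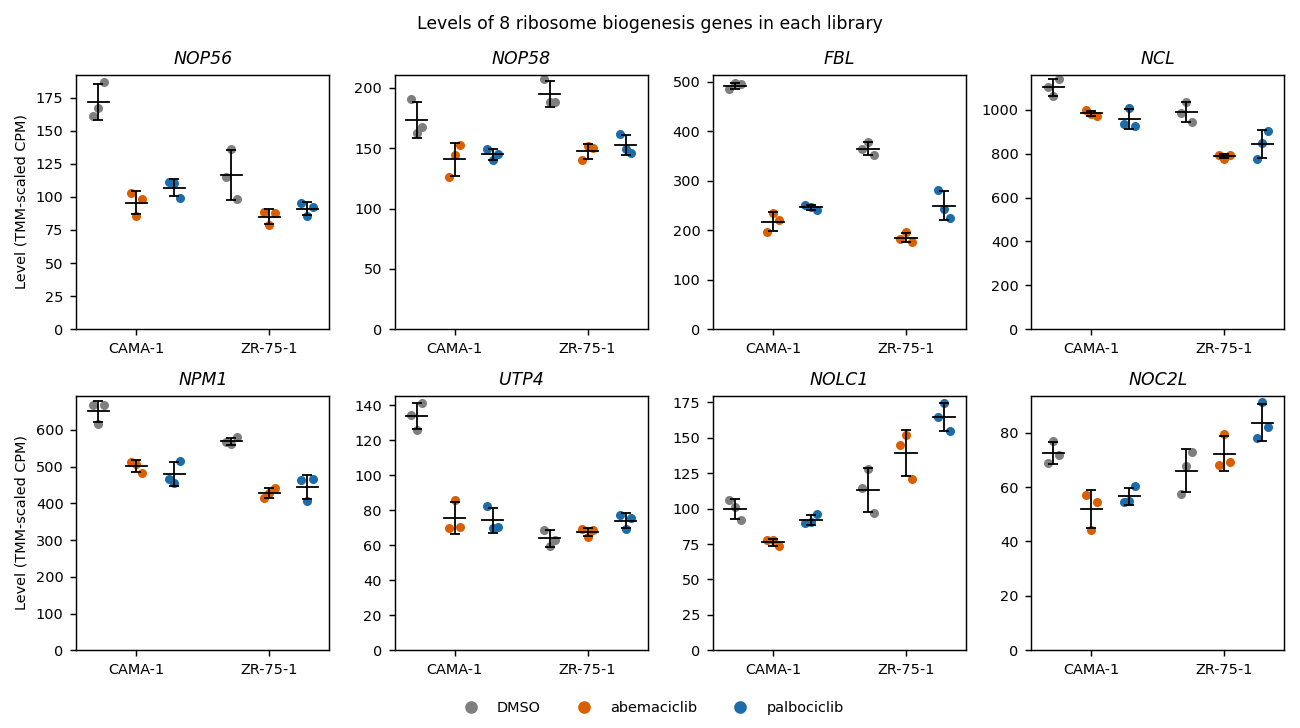
Levels (TMM-scaled CPM, axes from 0) of 8 members in each library, with points for libraries and black lines for the mean and SD of 3. The first 5 genes lie below DMSO with both drugs in both lines, *UTP4* drops in CAMA-1 from a mean of 134 to 75.3 and 74.2 and stays between 59.5 and 77.1 in ZR-75-1, and *NOLC1* lies below DMSO with abemaciclib in CAMA-1 and above it with palbociclib in ZR-75-1, *NOC2L* below it with both drugs in CAMA-1 and above it with palbociclib in ZR-75-1.

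The box H/ACA snoRNP proteins, which direct pseudouridylation of ribosomal RNA and also belong to telomerase, moved in both directions in ZR-75-1. In CAMA-1 all 4 log2 values were negative with each drug (medians -0.22 and -0.13), and 2 and 1 were called lower. Of all genes, 20.1% and 18.7% were called lower there. *DKC1* (chrX:154762742-154777689, plus strand), the pseudouridine synthase dyskerin, had 203, 210 and 236 CPM in CAMA-1 with DMSO, 179, 143 and 155 with abemaciclib and 201, 184 and 177 with palbociclib. Its ZR-75-1 values were 236, 252 and 246, then 254, 233 and 238, then 242, 204 and 210. It was lower in CAMA-1 with abemaciclib (log2 fold change -0.47, SE 0.09, edgeR quasi-likelihood adjusted p = 1.5e-05) and with palbociclib (-0.24, SE 0.08, adjusted p = 0.020), and was -0.03 (SE 0.08) and -0.17 (SE 0.08) in ZR-75-1, where neither value was called. The palbociclib call was lost without DMSO replicate 3 (-0.17), palbociclib replicate 2 (-0.23) or palbociclib replicate 3 (-0.20).

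*GAR1* (chr4:109815510-109824740, plus strand), another protein of the H/ACA particle, had 52.7, 65.0 and 58.0 CPM in ZR-75-1 with DMSO, 47.1, 35.4 and 53.3 with abemaciclib and 51.1, 38.7 and 43.0 under palbociclib. In CAMA-1 it had 57.2, 50.6 and 50.1, then 50.3, 58.4 and 43.1, then 48.4, 49.2 and 55.8. The groups overlapped in CAMA-1 and, for abemaciclib, in ZR-75-1. It was called lower in ZR-75-1 with abemaciclib (log2 -0.39, SE 0.14, edgeR quasi-likelihood adjusted p = 0.025) and palbociclib (-0.41, SE 0.14, adjusted p = 0.020). The former call was lost without DMSO replicate 2 (-0.30) or abemaciclib replicate 2 (-0.23), and the latter without DMSO replicate 2 (-0.32), palbociclib replicate 2 (-0.33) or palbociclib replicate 3 (-0.39).

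*NHP2*, the RNA-binding protein of the H/ACA particle (chr5:178149463-178153894, minus strand), had 177, 174 and 156 CPM in CAMA-1 with DMSO, 138, 149 and 151 with abemaciclib and 165, 160 and 139 under palbociclib. In ZR-75-1 it had 73.7, 80.4 and 73.6, then 62.7, 71.6 and 77.4, then 80.0, 87.5 and 81.3. Its fall with abemaciclib in CAMA-1 (log2 -0.24, SE 0.09, edgeR quasi-likelihood adjusted p = 0.024) was lost without DMSO replicate 1 (-0.21), DMSO replicate 2 (-0.21) or abemaciclib replicate 1 (-0.19), and 28.1% of its exonic bases lie opposite *RMND5B*, from which its reads cannot be told apart if strand was not counted. *NOP10*, a small protein of the particle, went the other way in ZR-75-1: it had 144 to 172 CPM with DMSO, 190 to 202 with abemaciclib and 177 to 211 with palbociclib, a rise of 0.30 (SE 0.09, adjusted p = 0.004) and 0.26 (SE 0.09, adjusted p = 0.016). The palbociclib call was lost without DMSO replicate 3 (0.20) or palbociclib replicate 3 (0.17), and in CAMA-1 its values of -0.20 and -0.11 were not called.

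Among the nucleolar phosphoproteins, *NCL* and *NPM1* fell in every comparison with DMSO. *NCL* (ENSG00000115053.16, chr2:231453531-231483641, minus strand) encodes nucleolin, which acts in ribosomal RNA transcription and early processing, and had 1105, 1061 and 1140 CPM in CAMA-1 with DMSO, 997, 981 and 971 with abemaciclib and 936, 1010 and 926 under palbociclib. In ZR-75-1 it had 987, 1034 and 942, then 792, 776 and 794, then 777, 848 and 905. Groups did not overlap, and the falls were modest in size: log2 -0.20, -0.23, -0.34 and -0.23, each with an SE of 0.06 or 0.07 and an edgeR quasi-likelihood adjusted p of at most 0.0061.

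*NPM1* (ENSG00000181163.13, chr5:171387116-171411810, plus strand), the ribosome chaperone nucleophosmin, had 668, 617 and 667 CPM in CAMA-1 with DMSO, 514, 508 and 484 with abemaciclib and 468, 456 and 516 with palbociclib. The ZR-75-1 values were 567, 561 and 580, then 414, 428 and 441, then 463, 406 and 466. The changes with abemaciclib and palbociclib were -24.5% and -27.9% for CAMA-1, then -25.3% and -22.0% for ZR-75-1, with every treated library below every DMSO library of its line and edgeR quasi-likelihood adjusted p of at most 4.3e-05. *NPM1* has many processed pseudogenes, and how reads with several alignments were counted is not given in the sources used here.

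*NOLC1* (chr10:102152176-102163871, plus strand), a chaperone of snoRNPs known as Nopp140, moved in opposite directions. It had 106, 101 and 91.7 CPM in CAMA-1 with DMSO, 77.8, 77.7 and 73.4 with abemaciclib and 89.5, 90.8 and 96.3 with palbociclib. ZR-75-1 had 115, 128 and 97.1, then 145, 152 and 121, then 165, 175 and 155. The abemaciclib libraries were all below DMSO in CAMA-1, and in ZR-75-1 the palbociclib libraries were all above DMSO while the abemaciclib libraries overlapped it. The log2 fold change was -0.41 (SE 0.10, edgeR quasi-likelihood adjusted p = 0.00071) with abemaciclib in CAMA-1, 0.53 (SE 0.10, adjusted p = 1.3e-05) with palbociclib in ZR-75-1 and 0.29 (SE 0.10, adjusted p = 0.015) with abemaciclib in ZR-75-1. That last call was lost without DMSO replicate 3 (0.20), abemaciclib replicate 1 (0.26) or abemaciclib replicate 2 (0.23), and palbociclib in CAMA-1 gave -0.14, which was not called.

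*LYAR*, a nucleolar regulator of growth, was lower in CAMA-1 with abemaciclib (57.8 ± 7.78 against 92.0 ± 5.07 CPM, SD, n = 3; log2 -0.71, SE 0.11, edgeR quasi-likelihood adjusted p = 1.8e-06) and palbociclib (66.4 ± 6.98 CPM; -0.50, SE 0.11, adjusted p = 0.00029), and its ZR-75-1 values of -0.23 and -0.07 were not called. *DDX21*, an RNA helicase that links RNA polymerase I and II transcription, had narrow intervals around 0 in all 4 comparisons. In CAMA-1 the 95% interval of its log2 fold change ran from -0.18 to 0.09 under abemaciclib and from -0.14 to 0.13 under palbociclib, and from -0.06 to 0.21 and from -0.05 to 0.22 in ZR-75-1.

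Neither RNA polymerase I subunit among the members was called lower than DMSO in either line. *POLR1B* (chr2:112541915-112579818, plus strand), the second largest subunit, had 18.3, 29.8 and 23.8 CPM in ZR-75-1 with DMSO, 43.1, 33.0 and 40.3 with abemaciclib and 37.9, 40.4 and 32.4 under palbociclib. In CAMA-1 it had 35.8, 37.8 and 32.6, then 32.3, 42.5 and 36.2, then 43.3, 36.1 and 32.0. In ZR-75-1 all treated libraries were above all DMSO libraries, and in CAMA-1 the groups overlapped. The rise in ZR-75-1 was 0.68 (SE 0.17, edgeR quasi-likelihood adjusted p = 0.0010) with abemaciclib and 0.61 (SE 0.17, adjusted p = 0.0040) with palbociclib, the latter lost without DMSO replicate 1 (0.44). In CAMA-1 it was 0.02 and 0.06.

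*POLR1A* (chr2:86020216-86106155, minus strand), the largest subunit, had 34.2, 29.1 and 39.1 CPM in CAMA-1 with DMSO, 44.7, 45.9 and 41.2 with abemaciclib and 45.2, 45.2 and 37.1 with palbociclib. The ZR-75-1 libraries had 21.3, 19.3 and 23.5, then 27.5, 33.7 and 28, then 23.6, 24.4 and 22.7. Its rise with abemaciclib in ZR-75-1 was 0.47 (SE 0.18, edgeR quasi-likelihood adjusted p = 0.031) and was lost without DMSO replicate 1 (0.48), DMSO replicate 2 (0.40) or abemaciclib replicate 2 (0.38). The values of 0.32 and 0.28 in CAMA-1 and 0.14 with palbociclib in ZR-75-1 were not called.

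Of the 12 small subunit processing factors, 4 fell in CAMA-1 under abemaciclib and 1 under palbociclib, and in ZR-75-1 2 rose with abemaciclib and 0 were called with palbociclib. The shares lower in CAMA-1 were 33.3% and 8.33%, against 20.1% and 18.7% of all genes, and the share higher in ZR-75-1 with abemaciclib was 16.7%, against 17.9%. *UTP4* (ENSG00000141076.18, chr16:69131291-69231130, plus strand), also called cirhin, belongs to the complex that first binds the ribosomal RNA precursor. It had 134, 126 and 141 CPM in CAMA-1 with DMSO, 69.9, 85.8 and 70.3 with abemaciclib and 82.3, 70.0 and 70.4 with palbociclib. Levels in ZR-75-1 were 68.8, 59.5 and 63.2, then 69.0, 64.6 and 68.7, then 77.1, 69.2 and 75.4. The 6 treated CAMA-1 libraries were thus all below DMSO, and 4 of them lay within the range of the ZR-75-1 libraries. *UTP4* fell by 45.5% with abemaciclib (log2 -0.88, SE 0.10, edgeR quasi-likelihood adjusted p = 1.7e-09) and palbociclib gave a change of -45.6% (-0.88, SE 0.10, adjusted p = 1.2e-09) in CAMA-1, and its ZR-75-1 values of 0.07 and 0.21 were not called.

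The other falls in this role came with abemaciclib in CAMA-1 and did not hold with every library left out. *NOP14*, a nuclear factor of 40S maturation, was at -0.28 (edgeR quasi-likelihood adjusted p = 0.023), lost without DMSO replicate 1 (-0.26), abemaciclib replicate 1 (-0.19) or abemaciclib replicate 2 (-0.22), and 20.7% of its exonic bases lie opposite an antisense gene. *UTP14A*, which recruits a helicase to the precursor, was at -0.48 (adjusted p = 0.022), lost without DMSO replicate 3 (-0.45) or abemaciclib replicate 1 (-0.46). *RRP9*, the U3 snoRNP protein, had 6.44 to 15.4 CPM in these groups and was at -0.65 (SE 0.25, adjusted p = 0.037), lost without DMSO replicate 2 (-0.59), DMSO replicate 3 (-0.64), abemaciclib replicate 2 (-0.49) or abemaciclib replicate 3 (-0.56).

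In ZR-75-1, *DDX10* (chr11:108665058-108940999, plus strand), an RNA helicase of 18S maturation, had 56.7, 54.6 and 60.8 CPM with DMSO, 80.6, 82.3 and 81.3 with abemaciclib and 60.6, 55.9 and 64.2 with palbociclib. The abemaciclib libraries stood clear of the other 6. In CAMA-1 the values overlapped, at 54.0, 41.9 and 57.5, then 52.4, 42.5 and 47.8, then 52.0, 46.4 and 36.4. *DDX10* rose by 0.50 with abemaciclib in ZR-75-1 (SE 0.11, edgeR quasi-likelihood adjusted p = 0.00031) and the palbociclib value was 0.07. *RRP12*, an export factor of pre-ribosomes (chr10:97356358-97426076, minus strand), had 15.4, 14.4 and 18.7 CPM in ZR-75-1 with DMSO, 29.2, 22.6 and 24.9 with abemaciclib and 19.6, 14.9 and 22.1 with palbociclib, and in CAMA-1 10.2, 15.7 and 13.8, then 9.00, 18.9 and 12.5, then 18.5, 13.9 and 10.2. It rose with abemaciclib in ZR-75-1 by 0.66 (SE 0.20, adjusted p = 0.0083), a call lost without abemaciclib replicate 1 (0.55). *WDR43*, *WDR75*, *UTP15*, *UTP20*, *BYSL* and *TSR1* were called against DMSO in neither line, with log2 values from -0.23 to 0.38.

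Of the 13 tested large subunit processing factors, 5 fell and 1 rose with abemaciclib in CAMA-1, and 3 fell and 1 rose with palbociclib. The lower shares were 38.5% and 23.1%, against 20.1% and 18.7% of all genes, the latter pair being close. *PES1*, a subunit of the PeBoW assembly complex that is needed for processing of the large subunit RNAs, fell from 49.1 ± 4.28 CPM to 34.4 ± 2.35 and 37.0 ± 4.67 (SD, n = 3), with log2 values of -0.55 (SE 0.14, edgeR quasi-likelihood adjusted p = 0.0012) and -0.44 (SE 0.13, adjusted p = 0.0071), the palbociclib call being lost without DMSO replicate 3 (-0.37, adjusted p = 0.053). *BOP1*, its partner, had 75.1, 71.7 and 63.0 CPM with DMSO, 63.5, 54.9 and 55.0 with abemaciclib and 59.4, 62.0 and 57.1 with palbociclib, and in ZR-75-1 23.6, 24.2 and 17.6, then 24.2, 22.6 and 23.3, then 27.5, 21.0 and 25.6. Its fall with abemaciclib in CAMA-1 was -0.29 (SE 0.11, adjusted p = 0.037), with overlapping groups, and was lost without DMSO replicate 1 (-0.24), DMSO replicate 2 (-0.27), abemaciclib replicate 2 (-0.27) or abemaciclib replicate 3 (-0.25).

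*WDR12* (chr2:202874261-203014798, minus strand), the other member of PeBoW, was the member called higher in CAMA-1. It had 12.1, 13.4 and 9.42 CPM with DMSO, 25.4, 13.7 and 21.9 with abemaciclib and 14.7, 19.3 and 18.4 under palbociclib. In ZR-75-1 it had 16.4, 16.0 and 15.9, then 15.6, 21.9 and 18.9, then 14.9, 14.2 and 12.1. Abemaciclib replicate 2 in CAMA-1 was barely above the highest DMSO library. The rise was 0.82 (SE 0.23, edgeR quasi-likelihood adjusted p = 0.0031), lost without abemaciclib replicate 1 (0.63), and 0.56 (SE 0.23, adjusted p = 0.049) with palbociclib, lost without DMSO replicate 1 (0.595), DMSO replicate 3 (0.405), palbociclib replicate 2 (0.48) or palbociclib replicate 3 (0.53). The palbociclib call was also lost with the replicate number as a block (0.56, adjusted p = 0.063) and by DESeq2 (0.56, adjusted p = 0.15). Thus the PeBoW proteins were not called in 1 direction, and at 32 to 96 counts per library *WDR12* was among the less deeply counted members.

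*NOC2L* (chr1:944203-959309, minus strand), a pre-60S factor that also binds p53, was lower in CAMA-1 and higher in ZR-75-1. It had 69.0, 77.0 and 71.7 CPM in CAMA-1 with DMSO, 57.2, 44.2 and 54.4 with abemaciclib and 54.6, 54.9 and 60.2 under palbociclib. In ZR-75-1 it had 57.3, 67.8 and 72.9, then 68.0, 79.5 and 69.1, then 78.0, 91.2 and 81.9. No treated CAMA-1 library reached DMSO, and in ZR-75-1 the palbociclib libraries were above it. The CAMA-1 falls were -0.50 (SE 0.12, edgeR quasi-likelihood adjusted p = 0.00051) and -0.39 (SE 0.11, adjusted p = 0.0050). The rise with palbociclib in ZR-75-1 was 0.34 (SE 0.11, adjusted p = 0.019), lost without DMSO replicate 1 (0.24) or palbociclib replicate 2 (0.27), and abemaciclib there gave 0.12, not called.

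*MRTO4*, which holds the place of a stalk protein on the pre-60S particle, fell in CAMA-1 with abemaciclib (log2 -0.38, SE 0.09, edgeR quasi-likelihood adjusted p = 0.00086) and palbociclib (-0.29, SE 0.09, adjusted p = 0.0096), the latter lost without palbociclib replicate 2 (-0.22, adjusted p = 0.090). *PPAN*, a pre-60S assembly factor, was at -0.49 with abemaciclib (adjusted p = 0.049), lost without DMSO replicate 2 (-0.40), DMSO replicate 3 (-0.47), abemaciclib replicate 2 (-0.54) or abemaciclib replicate 3 (-0.35), and also with the replicate block (-0.48, adjusted p = 0.069). Of its exonic bases, 49.2% are shared with a readthrough gene on the same strand. In ZR-75-1, *RRS1*, which loads the 5S RNA onto the pre-60S particle, rose with abemaciclib by 0.39 (SE 0.11, adjusted p = 0.0049), and *DDX18*, an RNA helicase, was at -0.26 with palbociclib (adjusted p = 0.035), lost without DMSO replicate 2 (-0.25), DMSO replicate 3 (-0.24), palbociclib replicate 2 (-0.18) or palbociclib replicate 3 (-0.24). *NOP16*, *WDR74*, *RRP1*, *GNL3* and *NIP7* were called against DMSO in neither line.

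**Figure D3:**
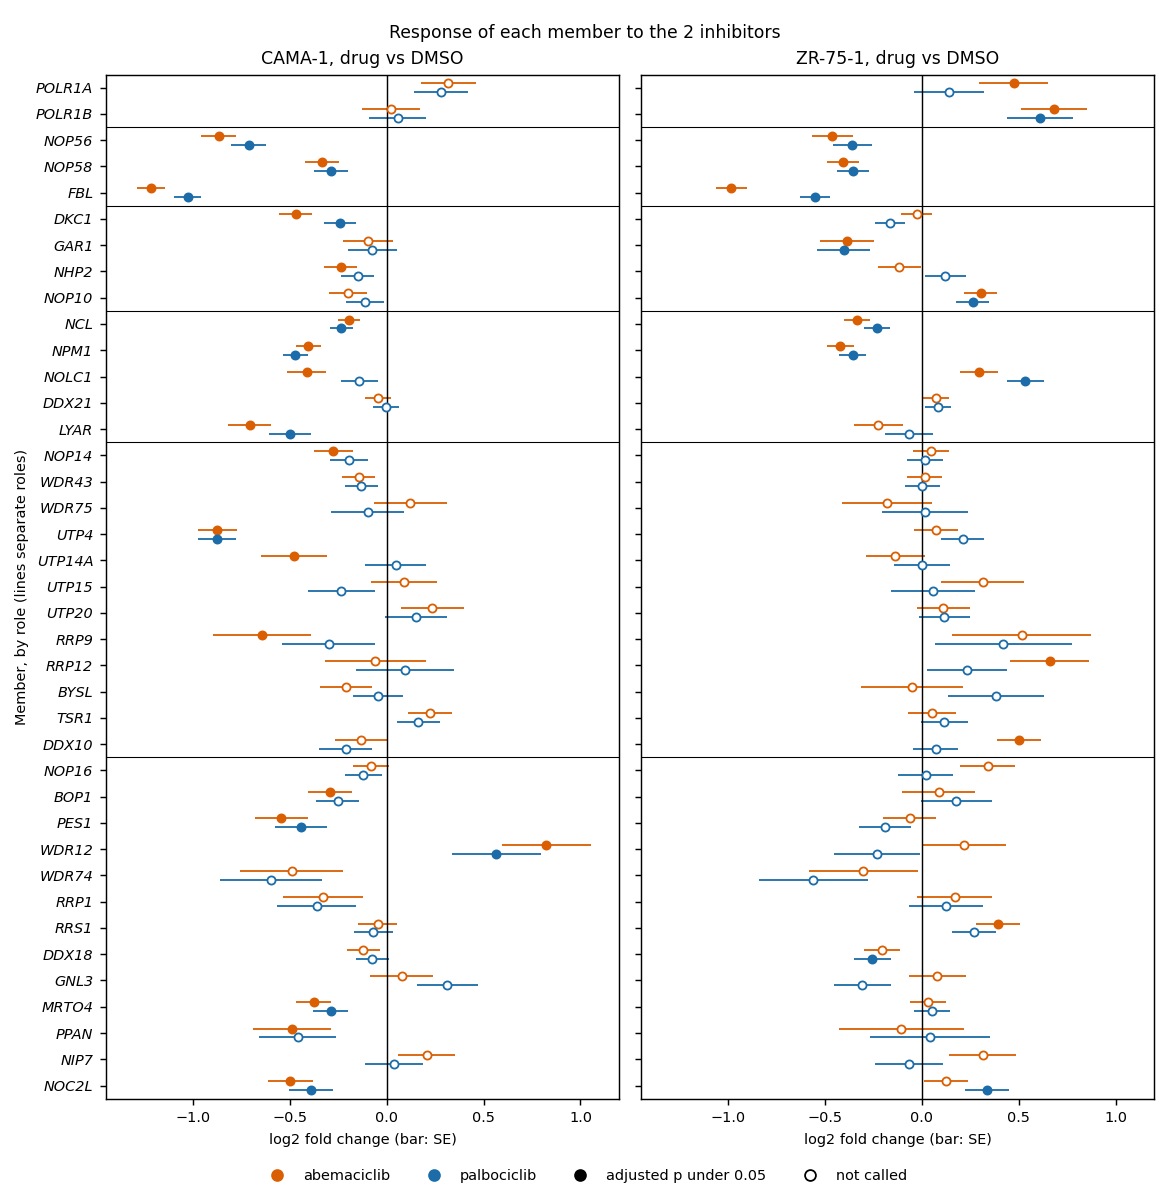
Log2 fold change against DMSO (horizontal, bar: SE) of each tested member (vertical, by role) in CAMA-1 (left) and ZR-75-1 (right) with abemaciclib (orange) and palbociclib (blue), filled where the adjusted p was under 0.05. Filled points lie mostly left of 0 in CAMA-1, with *WDR12* on the right, and on both sides of 0 in ZR-75-1.

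The difference between the lines in response was tested by subtracting the CAMA-1 log2 fold change from the ZR-75-1 one, in 1 fit over the 18 libraries. For abemaciclib, 8 of 39 members were called, all with the more positive value in ZR-75-1, where 8.19% of all genes were called in that direction and 10.0% in the other. For palbociclib, 5 were called more positive and 1 less positive, against 10.0% and 10.3% of all genes. The member medians were 0.30 and 0.18, beside -0.03 and -0.015 over all genes. With total-count scaling, which moved the median of all genes from -0.03 and -0.015 to 0.12 and 0.11, 16 members were called more positive for abemaciclib and 11 for palbociclib, with 0 less positive. Of all 11987 genes, 1620 and 1726 were then more positive, from 982 and 1201 with TMM. Those less positive were 837 and 827, from 1203 and 1237.

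*UTP4* had the smallest p of the members for both drugs: its response was 0.92 (SE 0.15, edgeR quasi-likelihood adjusted p = 3.4e-06) higher in ZR-75-1 for abemaciclib and 1.06 (SE 0.15, adjusted p = 7.5e-08) for palbociclib. *NOLC1* differed by 0.68 (SE 0.14, adjusted p = 0.00024) and 0.65 (SE 0.14, adjusted p = 0.00028), and *NOC2L* by 0.60 (SE 0.17, adjusted p = 0.0059) and 0.70 (SE 0.16, adjusted p = 0.00067). These genes were called for both drugs and in every leave-one-out fit. Also called for abemaciclib were *DKC1* at 0.42, *DDX10* at 0.61, *NOP10* at 0.48, *POLR1B* at 0.64 and *MRTO4* at 0.39, and for palbociclib *FBL* at 0.45 (SE 0.11, adjusted p = 0.00099), *NOP10* at 0.35 and *GNL3*, a nucleolar GTPase, at -0.65.

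For *NPM1* the difference between lines had a 95% interval from -0.23 to 0.15 for abemaciclib and from -0.10 to 0.27 for palbociclib. Some of the line calls did not hold with each library left out. The *POLR1B* call was lost without CAMA-1 DMSO replicate 2 (0.64), CAMA-1 abemaciclib replicate 1 (0.54), ZR-75-1 DMSO replicate 1 (0.47) or 3 (0.63) or ZR-75-1 abemaciclib replicate 1 (0.60) or 3 (0.61). For *MRTO4* it was lost without CAMA-1 abemaciclib replicate 1 (0.35), ZR-75-1 DMSO replicate 3 (0.36) or ZR-75-1 abemaciclib replicate 2 (0.37) or 3 (0.35). *NOP10* lost its palbociclib call (adjusted p = 0.0495 with all libraries) without CAMA-1 DMSO replicate 1 (0.31), CAMA-1 palbociclib replicate 2 (0.37) or 3 (0.34), ZR-75-1 DMSO replicate 3 (0.29) or ZR-75-1 palbociclib replicate 3 (0.30). The *GNL3* call was lost in 7 of 12 such fits, with values from -0.51 to -0.60: without CAMA-1 DMSO replicate 1 or 3, CAMA-1 palbociclib replicate 1 or 2, ZR-75-1 DMSO replicate 1 or 2, or ZR-75-1 palbociclib replicate 1.

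**Figure D4:**
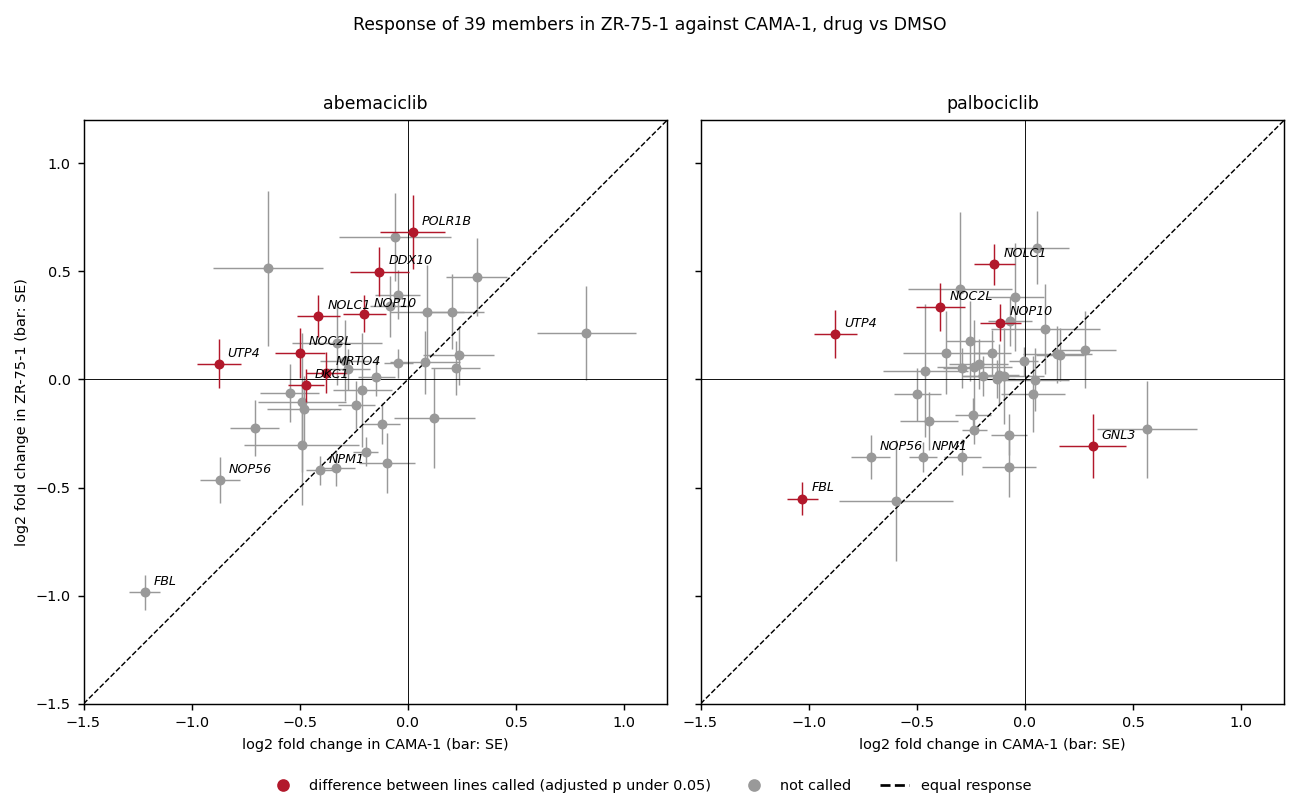
Log2 fold change against DMSO in ZR-75-1 (vertical) against that in CAMA-1 (horizontal) for the 39 tested members, for abemaciclib (left) and palbociclib (right), with SE bars and a dashed line of equal response. Red points are members whose difference between lines was called; the 8 for abemaciclib and 5 of 6 for palbociclib lie above the dashed line, and *GNL3* lies below it.

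Abemaciclib and palbociclib, different molecules given at the same concentration and time, were compared directly for 39 members in each line. The fall of *MKI67* given above was larger with abemaciclib in both lines, so equal concentration was not equal effect on this marker of cycling cells. Whether differences between the drugs in the members go with it was not tested. In CAMA-1, 0 members differed by the edgeR quasi-likelihood test, where 2.33% of all genes were called; 4 members had an unadjusted p under 0.05, and DESeq2 called 0. Log2 differences between the drugs ran from -0.53 (*UTP14A*) to 0.32 (*UTP15*), and the 95% interval for *UTP4* was from -0.21 to 0.21. In ZR-75-1, 2 members differed, where 13.2% of all genes were called: *DDX10* was higher with abemaciclib by 0.43 (SE 0.11, edgeR quasi-likelihood adjusted p = 0.0050, over all genes) and *FBL* was lower (log2 difference -0.43, SE 0.08, adjusted p = 6.3e-05). Both calls held in every leave-one-out fit, with no overlap between the drugs' libraries in either gene. In CAMA-1 *FBL* was also lower with abemaciclib in each library, at -0.19 (95% interval -0.33 to -0.04), which was not called (adjusted p = 0.23).

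With DMSO alone, 18 of 39 members were lower and 5 higher in ZR-75-1 than in CAMA-1, where 29.8% and 31.5% of all genes were called, with a median of -0.16 against 0.01 over all genes. *NOP16*, a pre-60S factor (chr5:176383946-176388927, minus strand), had 36.3, 36.2 and 33.9 CPM in ZR-75-1 and 89.4, 102 and 101 in CAMA-1, a log2 difference of -1.46 (SE 0.11, edgeR quasi-likelihood adjusted p = 5.2e-18). With the drugs it had 43.8, 45.2 and 46.6 then 37.3, 34.9 and 35.9 in ZR-75-1, and 99.3, 89.7 and 93.4 then 90.7, 90.8 and 94.2 in CAMA-1, so that no library of either line overlapped the other line. Of its exonic bases, 18.6% lie opposite genes on the other strand. *BYSL*, a factor of late 40S maturation, differed by -2.10 (SE 0.19, adjusted p = 4.3e-16), *BOP1* by -1.67 (SE 0.14, adjusted p = 3.0e-16), *NHP2* by -1.15 (SE 0.10, adjusted p = 1.4e-16) and *UTP4* by -1.07 (SE 0.10, adjusted p = 5.1e-14).

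Those higher in ZR-75-1 were *UTP14A* at 0.72, *NOP10* at 0.59, *UTP20* at 0.50, *GNL3* at 0.48 and *DDX21* at 0.34. *UTP20*, a scaffold protein of the small subunit processome, lost its call without CAMA-1 DMSO replicate 2 (0.30). Both RNA polymerase I subunits were lower in ZR-75-1, *POLR1A* at -0.69 and *POLR1B* at -0.55, the latter lost without ZR-75-1 DMSO replicate 1 (-0.39). *FBL* at -0.43, *NOP56* at -0.56, *NPM1* at -0.19 and *NCL* at -0.16 were lower too, *NCL* losing its call without ZR-75-1 DMSO replicate 1 (-0.16) or 3 (-0.13), and so did *NIP7*, a pre-60S factor at -0.50 with 18.4% of its exonic bases opposite another gene, without ZR-75-1 DMSO replicate 2 (-0.35). *DKC1*, *GAR1*, *NOP58* and *NOLC1* were not called. With total-count scaling 22 members were lower and 3 higher. Of all 11987 genes, 4335 were then lower and 3078 higher, from 3571 and 3777 with TMM.

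The other genes of the pathway were counted from lists of their own. For all the lists the shares of all genes to set beside the counts, for abemaciclib and then palbociclib, are 20.1% and 18.7% lower and 20.3% and 18.4% higher in CAMA-1, and 18.3% and 13.4% lower and 17.9% and 14.5% higher in ZR-75-1. In CAMA-1, 12 of 44 other small subunit processing factors fell with abemaciclib (median -0.10) and 16 with palbociclib (-0.13), of which 0 and 1 rose, and for other large subunit processing factors 8 and 10 of 48 fell (medians -0.14 and -0.15) and 3 and 2 rose. The lower shares were 27.3% and 36.4% for the former list, and 16.7% and 20.8% for the latter, which are near those of all genes. In ZR-75-1 these lists were called 8 higher and 6 lower of 43, then 7 and 2, and 8 higher and 8 lower of 47, then 5 and 5. *BUD23*, which methylates 18S ribosomal RNA, is in the former list: it rose by 1.05 and 0.65 in ZR-75-1, and in CAMA-1 it was at -0.08, not called, with abemaciclib and at -0.29, called, with palbociclib. *TSR3*, also an 18S-modifying enzyme, fell in CAMA-1 (log2 -0.48 and -0.57). *GNL2*, a pre-60S GTPase, fell in ZR-75-1 (log2 -1.13 and -0.40), as did the large subunit factor *RSL24D1* (-0.50 and -0.57), and neither was called in CAMA-1.

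For other RNA polymerase I machinery, 4 and 6 of 13 fell and 0 rose in CAMA-1 (medians -0.36 and -0.26), and 3 and 1 of 14 fell in ZR-75-1, where 1 and 0 rose (medians 0.06 and -0.11). *TCOF1*, which encodes treacle, fell in all 4 comparisons (log2 -0.47, -0.49, -0.78 and -0.36), and *POLR1G*, a polymerase I subunit, fell in CAMA-1 (-0.42 and -0.38). *UBTF*, the upstream binding factor of ribosomal DNA, was lower with abemaciclib in CAMA-1 (log2 -0.44, edgeR quasi-likelihood adjusted p = 0.0060) and was not called elsewhere, and *RRN3*, *POLR1C* and *POLR1D* were not called against DMSO. Among RNA polymerase III genes, 6 and 5 of 21 fell and 3 and 3 rose in CAMA-1 (medians 0.06 and -0.13), against 2 and 1 lower and 1 and 2 higher in ZR-75-1 (0.08 and 0.00). *GTF3A*, which is needed for 5S RNA transcription, fell in CAMA-1 (log2 -0.72 and -0.60), as did *POLR3K* (-0.88 and -0.44).

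Of 10 snoRNP assembly factors, 4 fell with each drug in CAMA-1 and 0 rose (medians -0.37 and -0.34), and 3 and 1 fell and 1 and 1 rose in ZR-75-1 (-0.19 and -0.06). *RUVBL1* and *PIH1D1*, of the R2TP complex that assembles these particles, fell in CAMA-1, with log2 values of -0.95 and -0.83 under abemaciclib and -0.64 and -0.62 under palbociclib. They also fell with abemaciclib in ZR-75-1 (-0.40 and -0.45). Of 14 RNA exosome genes, 6 fell with each drug in CAMA-1 and 0 rose (-0.41 and -0.33), against 3 and 2 lower and 2 and 2 higher in ZR-75-1 (-0.01 and -0.075). *EXOSC9* fell in all 4 comparisons (-1.09, -0.89, -0.68 and -0.53), and *MPHOSPH6* rose in ZR-75-1 by 0.43 and 0.69. Of the snoRNA host genes, 7 and 8 of 14 fell and 2 and 0 rose in CAMA-1 (-0.42 and -0.385), and 5 and 7 of 15 fell and 3 and 0 rose in ZR-75-1 (-0.10 and -0.24). *SNHG6* fell in all 4 comparisons (log2 -1.01, -0.87, -0.27 and -0.295), and so did *SNHG19* (-2.37, -1.67, -1.51 and -0.76).

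Ribosomal protein genes, whose products the members build into subunits, were counted too: 61 and 60 of 77 fell and 2 and 2 rose in CAMA-1 (medians -0.41 and -0.37), while ZR-75-1 had 25 lower and 13 higher of 76 under abemaciclib and 3 lower and 7 higher under palbociclib (-0.06 and -0.01). The difference between lines was called more positive in ZR-75-1 for 51 of 77 with abemaciclib and 48 of 77 with palbociclib, and less positive for 1 and 1. Of all genes, 8.19% and 10.0% were called more positive and 10.0% and 10.3% less positive. *RPS29* fell in all 4 comparisons (log2 -1.003, -0.81, -0.73 and -0.20), and *RPS19* in 3 of them (-0.88, -0.77 and -0.42), with -0.16 for palbociclib in ZR-75-1, which was not called. In the MYC network 2 and 2 of 10 fell and 3 and 3 rose in CAMA-1 (0.15 and 0.31), against 1 and 2 lower and 2 and 2 higher in ZR-75-1 (0.05 and 0.02). The CAMA-1 lower share, 2 of 10 with each drug, was near that of all genes. *MYC* itself had 12.5 ± 3.87, 13.1 ± 2.28 and 14.6 ± 4.14 CPM (SD, n = 3) with DMSO, abemaciclib and palbociclib in CAMA-1. ZR-75-1 had 25.2 ± 5.15, 20.8 ± 1.82 and 17.8 ± 3.17 CPM, and there the palbociclib value of -0.51 was called (edgeR quasi-likelihood adjusted p = 0.047) and the others were not. *MXD3*, a MAX partner, fell in all 4 comparisons. Its log2 values were -2.80 and -2.82 in CAMA-1 and -1.74 with palbociclib in ZR-75-1, and ZR-75-1 had 57, 62 and 39 counts with DMSO and 2, 1 and 3 with abemaciclib, for which no fold is given. *MLXIP*, another member of the network, rose by 0.57 and 0.46 in CAMA-1, and by 0.95 and 1.03 in the other line.

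**Figure D5:**
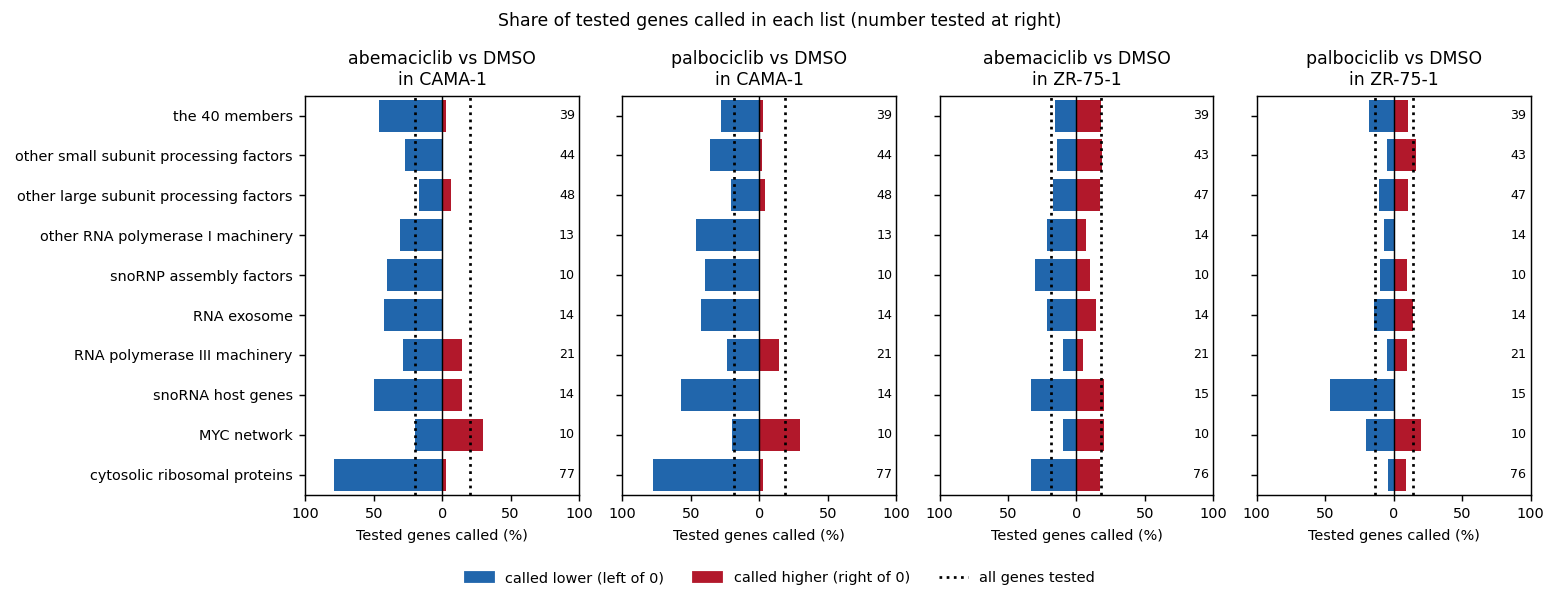
Share of tested genes called higher (red, right of 0) or lower (blue, left of 0) in the members and 9 lists of the pathway, in percent, for the 4 comparisons with DMSO, with the number tested at the right and dotted lines for the shares over all genes. In CAMA-1 the lower shares of the members (46.2% and 28.2%) and of every list other than the other large subunit factors and the MYC network lie beyond the dotted line with both drugs, and in ZR-75-1 the lower shares of the snoRNA host genes (33.3% and 46.7%) reach furthest.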

How the data were processed

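The authors deposited 1 table of read counts per gene, with all 18 libraries as columns. Reads were made with a 3′-end kit (its strand differs between the labels and the study's methods), trimmed with BBDuk, aligned to hg38 with STAR 2.7.5b and counted on GENCODE genes with featureCounts 2.0.1. Strand setting, multi-mapping reads and molecular identifiers are not given in the sources used here. The study describes its replicates as independent; no label ties libraries to separate cultures, so p-values measure the spread between these samples.

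Each line was fitted over its 9 libraries in edgeR 4.0.16 (R 4.3.3) on the deposited counts with TMM scaling, filterByExpr and the quasi-likelihood F test, which left 11053 (CAMA-1) or 11017 (ZR-75-1) genes; differences between lines used 1 fit of 18 libraries and 11987 genes. P-values were adjusted by Benjamini-Hochberg across every gene of a fit, and called under 0.05. DESeq2 1.42.0, which the study used, was an alternative. SE comes from the fitted means and dispersions; intervals are 1.96 SE to each side. The biological coefficient of variation was 8.12% and 8.30%. The fits were tested on simulated data in which few genes were changed, and modest changes were often not called there. The real data hold many more called genes, so how often changes are missed in them was not measured. A value not called does not show the absence of a change. Gene names came from a name table (60445 of 60656 identifiers matched) and coordinates from GENCODE v44 on GRCh38.

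The members and lists were chosen with earlier results of these data known. Values in every library are given for members called in the same direction in all comparisons with DMSO, for the 2 largest called rises and falls against DMSO and between drugs, for the 3 smallest p in each comparison of the lines, and for *POLR1A*, *POLR1B*, *FBL*, *NOP56*, *DKC1*, *NPM1*, *NCL* and *BOP1*. Other genes named are *MYC*, *UBTF*, *RRN3*, *POLR1C*, *POLR1D*, *TCOF1*, *MKI67* and the 2 of each list with the smallest p against DMSO. *SNU13* was added as a further box C/D protein. The remaining members are described by role. Replicate numbers did not pair the libraries.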

Additional observations from a re-analysis of the deposited data

Results flagged for a closer look

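Each of these results was picked out because the response to a drug differed between the lines by a test of the difference itself (edgeR quasi-likelihood interaction, adjusted p under 0.05), and each value is the ZR-75-1 log2 fold change less the CAMA-1 one. For abemaciclib they were *POLR1B* at 0.635, *DKC1* at 0.419, *NOP10* at 0.479, *NOLC1* at 0.681, *UTP4* at 0.923, *DDX10* at 0.608, *MRTO4* at 0.386 and *NOC2L* at 0.597. For palbociclib they were *FBL* at 0.451, *NOP10* at 0.348, *NOLC1* at 0.648, *UTP4* at 1.061, *GNL3* at -0.648 and *NOC2L* at 0.702. Both drugs share the DMSO libraries of a line, so that the values of a gene for the drugs are not independent of each other. *UTP4*, *NOLC1* and *NOC2L* held in every fit that left out a library, whereas *POLR1B*, *MRTO4*, *GNL3* and the palbociclib value of *NOP10* did not.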

How the results depend on the processing

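Of 94 calls of members over 9 comparisons, 64 held in every fit that left out 1 library and 63 under every alternative, 42 values that were not called passed under at least 1, and no called value turned its sign. The cause of the changes below was not tested. With total-count scaling the member medians were -0.338 and -0.255 for abemaciclib and palbociclib against DMSO in CAMA-1, 0.45 and 0.309 for the differences in response between lines and -0.317 between the lines with DMSO, and 16 and 11 members were called for the differences in response. Of all 11987 genes, 2457 and 2553 were called for those differences, from 2185 and 2438 with TMM. With all 18 libraries in 1 fit the CAMA-1 medians were -0.18 and -0.119. Without mitochondrial genes in the scaling, the medians of the differences in response were 0.346 and 0.227, and with no filter on low counts 0.252 and 0.139. Upper-quartile scaling gave medians of 0.04 between drugs in ZR-75-1 and -0.118 between lines. With mitochondrial genes left out of the total, the member shares were 0.6942%, 0.5728% and 0.5839% in CAMA-1 with DMSO, abemaciclib and palbociclib and 0.5884%, 0.5303% and 0.5391% in ZR-75-1. DESeq2 did not call the falls of *NHP2*, *NOP14*, *UTP14A*, *RRP9*, *BOP1* and *PPAN* or the palbociclib rise of *WDR12* in CAMA-1, nor *POLR1A*, *GAR1*, *DDX18* and the rise of *NOC2L* in ZR-75-1 (adjusted p from 0.056 to 0.15). Total-count scaling ended the *GNL3* calls (-0.519 for the palbociclib response, 0.322 with DMSO).

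Leaving out 1 library gave member medians from -0.252 to -0.2 for abemaciclib and -0.18 to -0.151 for palbociclib in CAMA-1, -0.07 to -0.017 between drugs in CAMA-1, -0.002 to 0.06 and 0.035 to 0.072 in ZR-75-1, -0.008 to 0.053 between drugs in ZR-75-1, 0.237 to 0.37 and 0.177 to 0.249 for the differences in response and -0.239 to -0.159 between lines. The median for abemaciclib in ZR-75-1 fell to -0.002 without DMSO replicate 3. Of the listed pathway genes, 2 differed between drugs in CAMA-1, against 1 with RLE scaling, 1 with the replicate block, 1 in the fit of 18 libraries and 0 to 2 with a library left out.

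The replicate numbers did not pair the libraries: 18 correlations of same-numbered libraries ran from -0.0781 to 0.0114, and 0 of 18 libraries correlated best with its own number. With the replicate number as a block, 18 and 11 members were called against DMSO in CAMA-1, 13 and 11 in ZR-75-1, 0 and 2 between drugs, 8 and 6 for the differences in response and 23 between lines. The block ended the calls of *PPAN* with abemaciclib and *WDR12* with palbociclib in CAMA-1 and no other. With 2308442 to 4146549 counts per library, 1 count was worth 0.241 to 0.433 CPM, so that the members with few counts, such as *RRP9* and *WDR12*, had wide errors.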
